A study of Mus musculus with 7 samples.

Results

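Mitochondria translate their own short genome on a dedicated ribosome, the mitoribosome, whose proteins are all encoded in the nucleus and imported. The genes examined here are those whose single platform symbol begins with Mrpl or Mrps followed by a number, the names of mitochondrial ribosomal proteins of the large and the small subunit. The rule found 76 genes, 47 with a large subunit name and 29 with a small subunit name, among the 18193 genes that the arrays measured through probe sets with 1 symbol. All 76 passed the filter on low values. Their levels were compared between 2 cell populations sorted from bone marrow on 7 Affymetrix mouse expression arrays. The donors were C57Bl/6J mice, wild type, 6 to 12 weeks old. The first population was negative for CD45, lineage markers and CD31 and positive for CD54 and BP1. It is labelled stromal and has 4 arrays, stromal 1 to 4. The second was negative for CD45, lineage markers and CD54 and positive for CD31. It is labelled endothelial and has 3 arrays, endothelial 1 to 3. No treatment is given for either. Each array received RNA amplified from 1800 to 10000 sorted cells, and the labels do not say whether replicates came from separate mice, so the p-values speak only to the spread among these arrays, which may be technical.

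The mitoribosome makes a handful of hydrophobic subunits of the respiratory chain and of ATP synthase. Its small subunit binds the messenger RNA and holds the decoding site, and its large subunit forms the peptide bond and releases the chain through an exit tunnel into the inner membrane. Many of its proteins belong to families that bacterial ribosomes share, and the rest are found only in mitochondria. The transcription factors NRF1, GABP and YY1 are the textbook examples of regulators that act on nuclear genes of mitochondrial proteins.

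The sorted populations were set against defining markers before the members were read. All 8 reticular stroma markers were higher on the stromal arrays. Of 8 endothelial markers, Pecam1 (the CD31 gene), Kdr and Plvap were higher on the endothelial arrays, Stab2 was not called, and Cdh5, Emcn, Tek and Tie1 lay below the filter, with Cdh5 (the gene of VE-cadherin) at 5.39 ± 0.25 (SD, n = 3) there. All 8 megakaryocyte and platelet markers were higher on the endothelial arrays, where their mean level was 13.49 to 13.85 on the log2 scale, against 5.68 to 6.42 on stromal 1 to 3 and 8.54 on stromal 4. Leukocyte markers (4 of 4), neutrophil precursor markers (5 of 5) and proliferation genes (10 of 15 tested) were also higher on the endothelial arrays. The mean level of the leukocyte list was 11.41 to 12.04 there and 5.52 to 8.16 on the stromal arrays, and that of the neutrophil precursor list was 9.33 to 11.76 and 7.51 to 9.50. The endothelial arrays therefore carry transcripts typical of blood cells at high levels, and differences between the groups cannot be told apart from the makeup of the sorted cells. In such bulk RNA, fewer cells of a type and less RNA per cell cannot be told apart either.

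More mitoribosome genes were called higher on stromal than on endothelial arrays. With limma, 32 of the 76 genes were called higher there (42.1%) and Mrpl57 alone was called higher on the endothelial arrays. A call needed a Benjamini-Hochberg adjusted p under 0.05 over all 13995 genes tested and a log2 difference, stromal minus endothelial, of at least 1. Among all genes tested 30.9% were called higher on the stromal arrays and 16.1% higher on the endothelial arrays. The median difference over the 76 genes was 0.96, with an interquartile range of 0.27 to 1.47, beside 0.19 over all genes tested. In 35 genes every stromal array lay above every endothelial array and in 4 genes the reverse held, where 35.7% and 32.7% of all genes tested did so. By adjusted p alone 40 genes passed with higher stromal and 4 with higher endothelial values, beside 36.9% and 31.5% of all genes. These counts depend on the scale of the arrays. A second quantile normalization of the deposited values gave 13 genes higher on stromal and 5 on endothelial arrays, and cyclic loess gave 14 and 8, while the median over all genes moved from 0.19 to -0.13 and -0.02. The stromal share of the members was then 17.1% and 18.4%, below the 22.9% and 23.5% of all genes tested, whereas the members' median, 0.44 in both, stayed above that of all genes.

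The small subunit names held the larger share of calls. Of 29 genes 17 were called higher on stromal arrays (58.6%) and 0 on endothelial arrays, where 2 passed by adjusted p alone, with a median difference of 1.13. Of the 47 genes with a large subunit name 15 were higher on stromal arrays (31.9%, beside 30.9% of all genes) and 1 on the endothelial arrays, with a median difference of 0.62. The difference between the subunits was not tested. Under the second quantile normalization the counts higher on the stromal arrays were 9 of 29 and 4 of 47 (31% and 8.51%, beside 22.9% of all genes), with medians of 0.61 and 0.30. Under cyclic loess they were 9 and 5 (31% and 10.6%, beside 23.5%), with medians of 0.56 and 0.25. Names and structure part in 3 cases: Mrps30 and Mrps18a are placed in the large subunit by structures of the mitoribosome, and Mrps36 is known as a part of the 2-oxoglutarate dehydrogenase complex. With these moved, 17 of 49 large subunit genes and 15 of 26 small subunit genes were higher on the stromal arrays, with medians of 0.92 and 1.10. The medians thus lie close together by structure, while the shares of calls, 34.7% and 57.7%, remain apart. The families shared with bacteria and those found only in mitochondria are both present among the calls. These families were counted by subunit name, with Mrps18a, Mrps30 and Mrps36 kept in the small subunit. There 11 of 18 shared (61.1%) and 6 of 11 mitochondria-specific genes (54.5%) were called higher on the stromal arrays. In the large subunit 11 of 29 (37.9%) and 4 of 18 (22.2%) were. Beside the 30.9% of all genes tested, the last share lies lower.

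**Figure D1:**
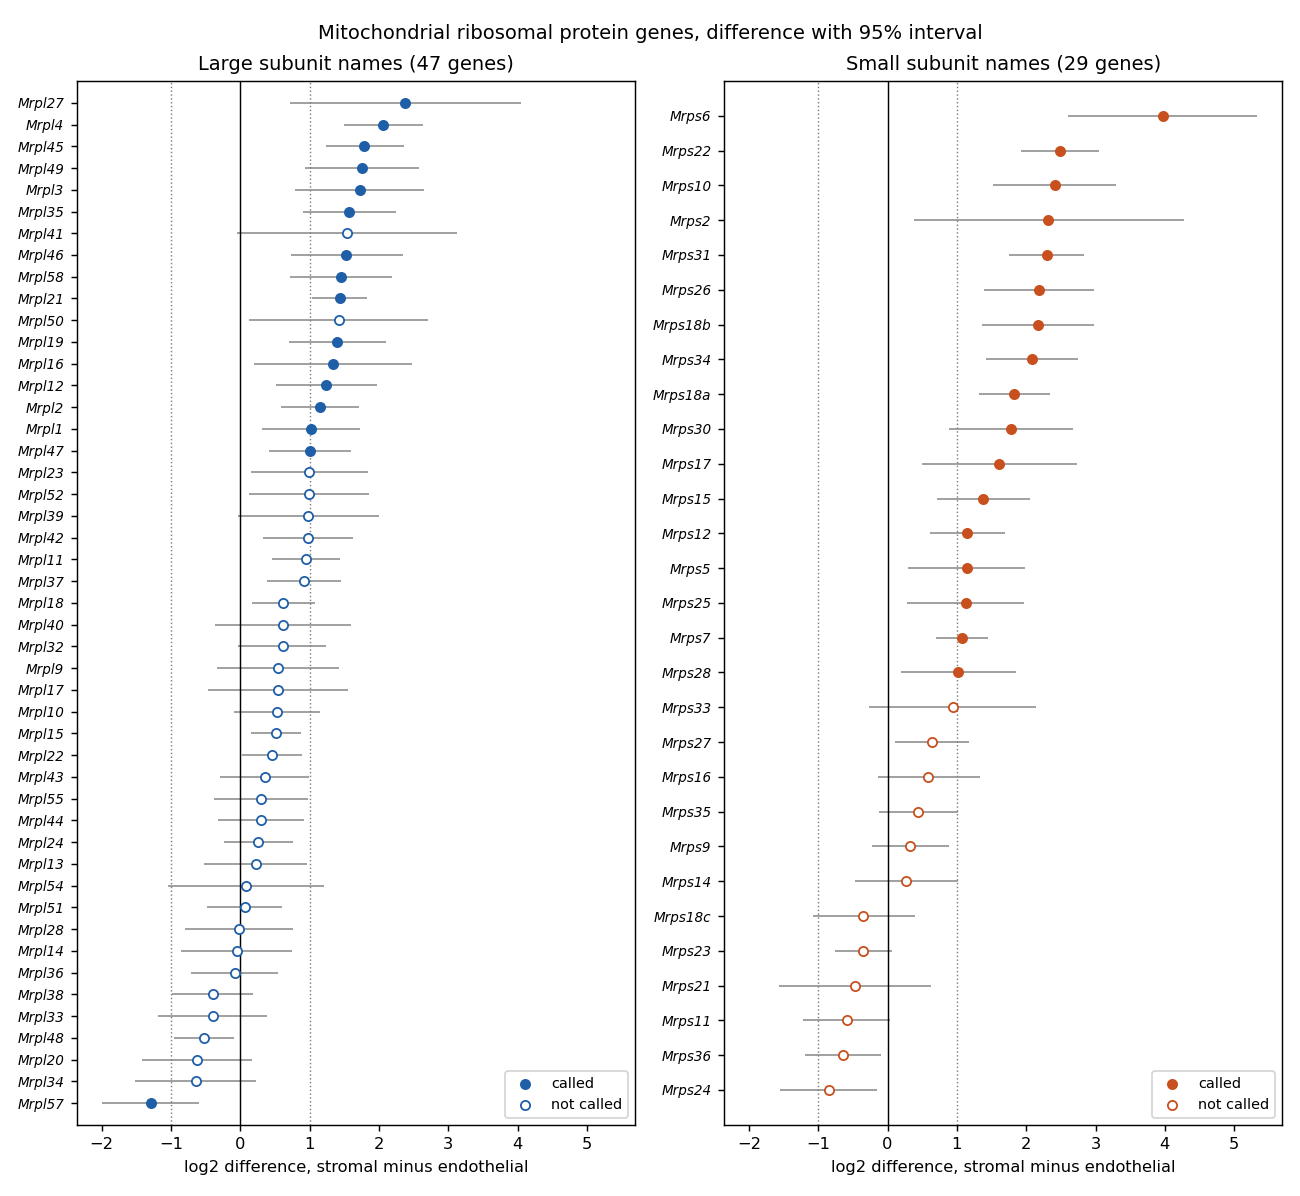
Log2 difference, stromal minus endothelial arrays (x axis), for each of the 47 genes with a large and the 29 genes with a small subunit name (y axis), with the 95% interval as a line. Filled points are called and open points are not; dotted lines mark a difference of 1 in either direction, and Mrps6 (3.97) and Mrpl57 (-1.29) are the ends.

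Mrps6 had the largest difference of the 76 genes. It encodes the small subunit protein of the S6 family, which in bacterial ribosomes pairs with S18. Its level was 12.64, 12.62, 12.77 and 12.43 on stromal 1 to 4 and 8.67, 10.14 and 7.14 on endothelial 1 to 3. The stromal arrays lay close together and all above the endothelial arrays, which spread over several log2 units. The difference was 3.97 (SE 0.59), or 15.6-fold, with an adjusted p of 0.000684. The second Mrps6 probe set differed by 3.38. In RefSeq the range of Mrps6 overlaps that of Slc5a3, the gene of a sodium and myo-inositol cotransporter, and the ranges begin 14 bases apart on chromosome 16. Slc5a3, looked at after the values of Mrps6 were seen, had a level of 12.91 ± 0.19 (SD, n = 4) on the stromal and 5.57 ± 1.16 (SD, n = 3) on the endothelial arrays, the latter below those arrays' 40th percentile, and its difference was 7.34 (SE 0.47, adjusted p 5.6e-06). Whether the Mrps6 probes also match transcripts of Slc5a3 was not tested. The 250 bases before the start of Mrps6 (chr16:92058086-92058335, GRCm38.p6, plus strand) are shown because both genes begin at their end. They are rich in G and C, and none of the 5 motifs searched below lies in them.
Mrps6: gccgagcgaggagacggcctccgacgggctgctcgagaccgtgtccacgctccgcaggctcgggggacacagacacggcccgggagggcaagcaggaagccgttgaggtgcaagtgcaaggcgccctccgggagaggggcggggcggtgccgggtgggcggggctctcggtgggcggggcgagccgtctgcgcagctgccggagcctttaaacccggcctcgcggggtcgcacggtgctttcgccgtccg

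Other small subunit proteins followed. Mrps22, a mitochondria-specific protein, stood at 8.36, 8.17, 8.29 and 8.51 on the stromal arrays and at 6.19, 6.06 and 5.29 on the endothelial arrays. The groups were far apart for their spread, with a difference of 2.49 (SE 0.25, adjusted p 6.42e-05). Mrps10, of the S10 family shared with bacteria, stood at 9.76, 10.00, 10.03 and 10.02 against 7.63, 8.43 and 6.58. That is a difference of 2.41 (SE 0.39, adjusted p 0.00102), again with all stromal arrays above. Mrps31, mitochondria-specific, stood at 8.17, 7.99, 7.87 and 7.93 against 5.98, 5.16 and 5.94, a difference of 2.30 (SE 0.24, adjusted p 8.41e-05). Its endothelial mean lay below those arrays' 40th percentile, so no fold is given. Mrps26, also mitochondria-specific, stood at 10.78, 10.91, 10.82 and 10.16 against 8.88, 7.66 and 8.89, a difference of 2.19 (SE 0.35, adjusted p 0.000931). Mrps2, of the S2 family, stood at 9.26, 9.33, 9.27 and 9.49 against 6.93, 9.24 and 4.86. Here endothelial 2 reached the stromal level while endothelial 3 lay far below it. The difference of 2.32 had an SE of 0.85 and an adjusted p of 0.0377, and its call was lost without any one of the arrays other than endothelial 2.

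The large subunit genes with the largest differences came from several sites of the ribosome. Mrpl27, whose bacterial relative L27 reaches the peptidyl transferase centre, stood at 11.54, 12.05, 12.21 and 12.13 on the stromal and at 9.95, 11.25 and 7.62 on the endothelial arrays. All stromal arrays were above, but the endothelial arrays spread widely, and the difference was 2.38 (SE 0.73, adjusted p 0.0191). Mrpl4, of a family that lines the exit tunnel, stood at 9.96, 10.12, 10.25 and 9.85 against 8.08, 7.47 and 8.41. Its difference was 2.06 (SE 0.25, adjusted p 0.00021), a 4.16-fold higher level with little spread in either group. Mrpl45, a mitochondria-specific protein near the tunnel exit that contacts the inner membrane, stood at 8.40, 8.24, 8.26 and 7.79 against 6.18, 6.85 and 6.12. That is a difference of 1.79 (SE 0.25, adjusted p 0.000435). Mrpl49 followed at 1.75 (SE 0.36, adjusted p 0.00332), Mrpl3, of a core family that reaches toward the peptidyl transferase centre, at 1.72 (SE 0.41, adjusted p 0.00635), and Mrpl35 at 1.57 (SE 0.29, adjusted p 0.00208). All stromal arrays lay above all endothelial arrays in each of these 6 genes. Over the 19 alternative settings Mrpl4 and Mrpl45 were called higher in all, Mrpl27 in 17, Mrpl3 in 16 and Mrpl35 in 15, and Mrpl49 in 14 of the 18 that measured it.

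Several members named for their place in the ribosome can be set side by side. Mrps12, of the family that carries the decoding site and is the classic site of streptomycin resistance in bacteria, was higher on the stromal arrays by 1.15 (SE 0.24, adjusted p 0.00341). Mrpl12, the stalk protein that recruits translation factors, was higher by 1.24 (SE 0.32, adjusted p 0.00908). Mrpl10, which anchors the stalk, differed by 0.53 (SE 0.27, adjusted p 0.109) and was not called. Mrps30, placed in the large subunit by structure, was higher by 1.78 (SE 0.39, adjusted p 0.00453). Mrps36 was 0.64 lower on the stromal arrays (a difference of -0.64, SE 0.24, adjusted p 0.0419), which misses the fold threshold. Among the members named so far, stalk, tunnel and decoding site each held a called gene, while the stalk anchor was not called. The members were not sorted by site, so whether the calls follow a site was not tested.

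The S18 family has 3 mouse genes, whose products occupy different places in the ribosome. Mrps18a stood at 8.65, 8.82, 8.90 and 8.32 on the stromal and at 6.69, 7.19 and 6.64 on the endothelial arrays, a difference of 1.83 (SE 0.22, adjusted p 0.000226). Mrps18b stood at 8.95, 8.75, 8.73 and 9.05 against 6.98, 7.34 and 5.77, a difference of 2.17 (SE 0.35, adjusted p 0.00109). Both were higher on every stromal array than on any endothelial array. Mrps18c, which stood at 9.68, 10.47, 10.71 and 9.66 against 10.28, 10.87 and 10.28, showed overlapping groups, and its difference of -0.35 (95% interval -1.08 to 0.39, adjusted p 0.353) was not called. The interval of Mrps18c ends below the intervals of Mrps18a (1.32 to 2.34) and Mrps18b (1.36 to 2.98), although the difference between these differences was not tested.

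Mrpl57 was the exception in the other direction. This small mitochondria-specific protein of the large subunit stood at 10.05, 10.65, 10.86 and 10.00 on the stromal and at 11.26, 11.62 and 12.16 on the endothelial arrays. All endothelial arrays lay above all stromal arrays, with a difference of -1.29 (SE 0.30, adjusted p 0.00623), a 2.44-fold higher endothelial level. Its second probe set differed by -0.02, and the call was lost with the mean of both (-0.66) and with the hybridisation control block described below. By adjusted p alone Mrps24 (-0.85, adjusted p 0.0361), Mrps36 and Mrpl48 (-0.52, adjusted p 0.0352) were also higher on the endothelial arrays. At the fold threshold, Mrpl47 lay just inside with a difference of 1.01 and Mrpl23 just outside with 0.99. The smallest differences, Mrpl28 at -0.02 (95% interval -0.80 to 0.76) and Mrpl14 at -0.05 (-0.85 to 0.74), have intervals that leave room for a change of less than 1 either way.

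Replicates spread unequally. The median SD over the 76 genes was 0.30 among the stromal arrays and 0.51 among the endothelial ones, and the endothelial SD was the larger in 63 genes. Over all genes tested the median SDs were 0.21 and 0.39, and the endothelial SD was the larger in 10685 of 13995. Stromal 3 was the highest stromal array in 45 of 76 genes and stromal 4 the lowest in 46, whereas over all genes tested they were so in 2709 and 3229 of 13995. Endothelial 2 was the highest endothelial array in 44 of 76 genes, and in 5109 of 13995 over all genes tested. As a deviation from each gene's mean over the arrays, the median of the 76 genes was 0.60, 0.47, 0.27 and 0.17 on stromal 3, 2, 1 and 4 and -0.11, -0.58 and -0.65 on endothelial 2, 3 and 1. The actin control, whose 3' minus 5' difference reports how far amplified copies reach from the 3' end, stood in the same order within each group: 1.79, 1.64, 1.31 and 1.30 on stromal 3, 2, 1 and 4 and 1.49, 0.96 and 0.65 on endothelial 2, 3 and 1. The same difference for Gapdh did not follow that order, at 3.17, 3.30, 3.07 and 3.51 on stromal 3, 2, 1 and 4 and 3.50, 2.37 and 2.54 on endothelial 2, 3 and 1. With the actin value as a covariate, a fit chosen after seeing the data, 18 genes passed with higher stromal and 3 with higher endothelial values, 10 and 0 of them in the small subunit and 8 and 3 in the large. The stromal share, 23.7%, was then below the 25.3% of all genes tested. The part of this value in the differences was not otherwise tested. Without stromal 4, the stromal array with the highest platelet markers, 32 and 1 members were called (42.1% and 1.32%, beside 29.2% and 16% of all genes). Without endothelial 2, the counts over all members were 41 and 2 (53.9% and 2.63%, beside 34.2% and 18% of all genes). The hybridisation controls, spiked-in label rather than cellular RNA, averaged 11.33 and 11.37 on endothelial 2 and 3 and 9.51 to 9.75 elsewhere. With that split as a block, which leaves endothelial 1 alone against the stromal arrays and assumes that it varies like the others, 25 genes passed with higher stromal (32.9%, beside 28.8% of all genes) and 0 with higher endothelial values.

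**Figure D2:**
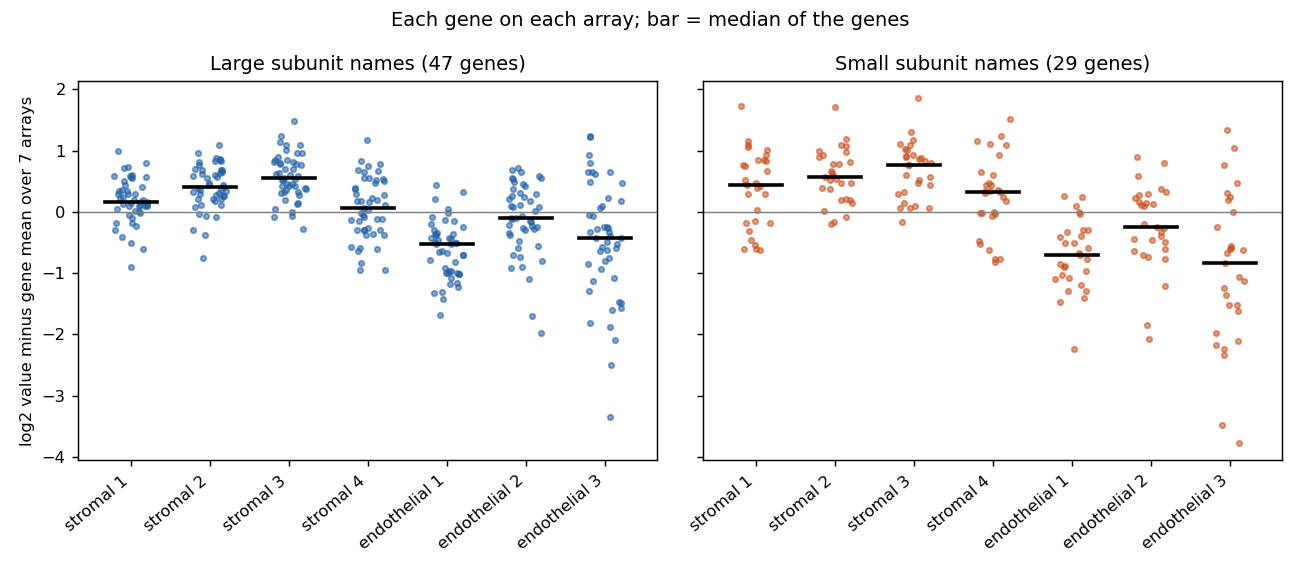
Log2 value of each gene minus its mean over the 7 arrays (y axis) on each array (x axis), for large (left) and small (right) subunit names; points are genes and bars are medians. Stromal medians run from 0.06 to 0.55 for the large and from 0.32 to 0.76 for the small subunit, and the endothelial medians lie below 0 on all 3 arrays.

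Of the 32 genes higher on the stromal arrays, 8 were called in each of the 19 alternative settings in which they could be tested: Mrps6, Mrps10, Mrps18a, Mrps18b, Mrps22 and Mrps34 with small subunit names, and Mrpl4 and Mrpl45 with large subunit names. Over these settings the difference lay between 2.14 and 2.75 for Mrps22, between 1.45 and 2.32 for Mrpl4, between 1.40 and 2.05 for Mrpl45 and between 3.21 and 4.71 for Mrps6. The sign of the difference was the same in every setting for 52 of the 76 genes. The matching shares of all genes tested are not given here, so the counts of 8 and 52 have no baseline.

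Probe sets of a gene did not always move together. The 76 genes had 156 probe sets, and 36 genes had several that were tested. In 19 of these genes all differences had one sign and in 17 the signs differed. In 6 genes, Mrpl9, Mrpl19, Mrpl21, Mrpl41, Mrps5 and Mrps15, probe sets lay on opposite sides with an adjusted p under 0.05 each. The probe set of Mrps15 with the highest mean differed by 1.38, another by 1.83 and the remaining one, which reads 6.44 to 6.95 on the stromal and 7.37 to 7.52 on the endothelial arrays, by -0.75. Mrpl19 ranged from -0.56 to 2.26, Mrpl21 from -1.11 to 1.43, Mrpl41 from -0.84 to 1.64, Mrpl9 from -0.95 to 1.12 and Mrps5 from -0.50 to 1.14. Mrps6, Mrpl27 and Mrpl3 are cases in which all tested probe sets were above 0. The other tested probe sets of Mrps10 (-0.31), Mrps2 (-0.33), Mrps26 (-0.21) and Mrpl49 (0.05) did not show the difference given above for these genes. Their adjusted p in limma over all probe sets was 0.432, 0.133, 0.46 and 0.895. With each gene taken as the mean of its probe sets, 19 genes passed with higher stromal and 1 with higher endothelial values, and the stromal share, 25%, was below the 26% of all genes in that setting. Of the probe sets that represent the genes, 31 carry a suffix that marks possible matches to several transcripts, and without such probe sets 24 of 61 genes passed with higher stromal (39.3%, beside 30.5% of all genes) and 2 with higher endothelial values.

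**Figure D3:**
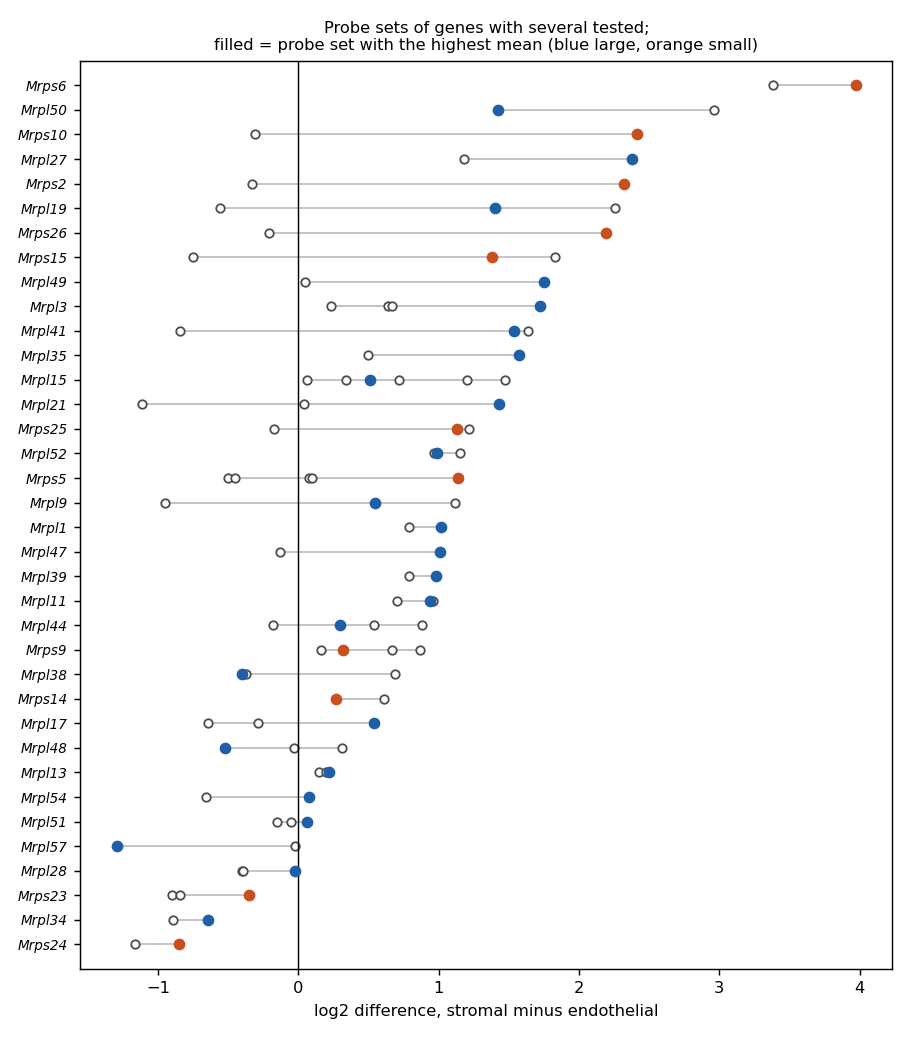
Log2 difference, stromal minus endothelial arrays (x axis), of each tested probe set of the 36 genes with several (y axis). Filled points are the probe sets with the highest mean, which represent the gene; in Mrps6 both points lie above 3, and in Mrpl21 they run from -1.11 to 1.43.

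Of 5 listed proteins of the mitoribosome with other names, 4 were measured (Aurkaip1 had no probe set with a single symbol), and these 4 were called higher on stromal arrays. With the hybridisation control block 1 of them was called, and with the mean of probe sets or the actin covariate 2 were. Dap3, a GTP-binding protein of the small subunit, was higher by 1.92 (SE 0.24, adjusted p 0.000279). Ptcd3 and Chchd1, also of the small subunit, were higher by 2.28 (adjusted p 0.0038) and 1.16 (adjusted p 0.0187), and Gadd45gip1, of the large subunit, by 1.39 (adjusted p 0.0101). Of the factors that build the ribosome and modify its RNA, 10 of 23 were higher in stromal and 1 in endothelial arrays, with a median difference of 0.97. The stromal count was 6 under the second quantile normalization, with the mean of probe sets and without suffixed ones, and 5 under cyclic loess. Nsun4, a methyltransferase of mitochondrial ribosomal RNA, was higher by 2.91 (SE 0.28, adjusted p 5.47e-05), and Eral1, the chaperone of the small subunit RNA, by 2.66 (SE 0.91, adjusted p 0.0302), with endothelial values of 6.68, 9.56 and 4.86. Malsu1, which binds the large subunit during assembly, was higher by 1.91 (SE 0.38, adjusted p 0.00272). Rbfa, the ribosome binding factor of the small subunit, was the exception and stood at 10.01 ± 0.19 (SD, n = 4) on the stromal and 11.78 ± 0.36 (SD, n = 3) on the endothelial arrays, a difference of -1.78 (SE 0.22, adjusted p 0.000241).

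In further steps of mitochondrial gene expression, the share of genes called higher on the stromal arrays was 54.5% for translation factors, 40% for synthetases and 21.4% for DNA upkeep and transcription. Beside the 30.9% of all genes tested, the last lies lower. Of 11 translation factors 6 were higher in stromal and 0 in endothelial arrays, and 1 of the rest had a difference below 0. Mtrf1l, a release factor, was higher by 2.63 (SE 0.18, adjusted p 7.96e-06), Gfm1, an elongation factor, by 1.78 (SE 0.36), and Mtfmt, which formylates the initiator transfer RNA, by 1.61 (SE 0.19). Of 15 mitochondrial aminoacyl-tRNA synthetases, 6 were higher on the stromal arrays, led by Rars2 at 1.93 (SE 0.22). Of 14 genes of mitochondrial DNA upkeep and transcription 3 were, namely Tefm (2.46, SE 0.19), Polg2 (2.28, SE 0.26) and Tfam (1.36, SE 0.51). The medians of these lists were 1.09, 0.74 and 0.24, beside 0.19 over all genes tested. These small counts moved with single arrays: 3 translation factors were called without endothelial 1, and 3 synthetases without stromal 1, stromal 2 or endothelial 1. Under the second quantile normalization 3 synthetases were higher in stromal and 2 in endothelial arrays, with the mean of probe sets 2 and 0, and with the actin covariate 3 and 0. The median of the DNA list turned to -0.08 under the second quantile normalization.

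The cytosolic ribosome and the respiratory chain had smaller shares of stromal calls than all genes tested. The 44 cytosolic ribosomal protein genes tested had a median of -0.12, with 3 higher in stromal and 3 in endothelial arrays (6.82% each). Without suffixed probe sets 21 of them were tested, with 5 higher in stromal and 1 in endothelial arrays. The stromal share was then 23.8%, beside 30.5% of all genes. The median of -0.12 has no settled sign. It was 0.05 with the replicate block or without stromal 4, and 0.17 with the hybridisation control block. It was 0.07 without suffixed probe sets and 0.02 without endothelial 2. The value of 0.14 after centring on these same genes follows from the centring and does not bear on the sign. The 79 nuclear genes of respiratory chain and ATP synthase subunits had a median of -0.28, with 5 higher in stromal and 12 in endothelial arrays (6.33% and 15.2%). Centring on the cytosolic ribosomal protein genes turned these counts to 11 and 4 (median -0.02), and the hybridisation control block gave 4 and 4. Ndufs3, a core subunit of complex I, was higher on the stromal arrays by 3.18, and Cox5a, of complex IV, higher on the endothelial arrays at -1.79. The products of mitoribosomes join the products of these genes in the same complexes, and the difference between these groups of genes was not tested. Of 21 genes of the Tomm and Timm import families, 6 were higher in stromal and 3 in endothelial arrays, with a median of 0.59. The shares, 28.6% and 14.3%, lie near the 30.9% and 16.1% of all genes tested. The counts of import genes were 1 and 3 under the second quantile normalization (median 0.22) and under cyclic loess (0.20). With the actin covariate they were 2 and 4 (0.29). Centred on the cytosolic ribosomal protein genes, 41 mitoribosome genes passed with higher stromal and 1 with higher endothelial values, 23 and 1 of them in the large subunit, and the stromal share was 53.9%, beside 37.5% of all genes.

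**Figure D4:**
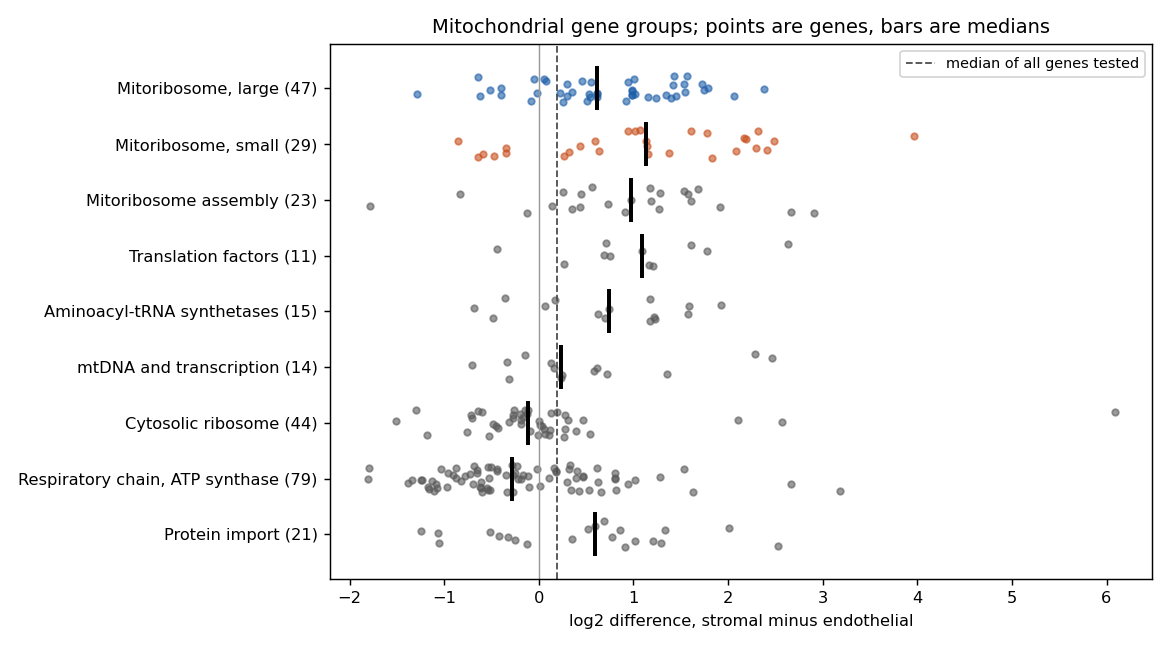
Log2 difference, stromal minus endothelial arrays (x axis), of the genes tested in each group (y axis, number of genes in brackets); bars are medians and the dashed line is the median of all genes tested, 0.19. The bars of large and small subunit names lie at 0.62 and 1.13, and those of the cytosolic ribosome and the respiratory chain at -0.12, a value whose sign changes between settings, and -0.28.

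Transcription factors that act on nuclear genes of mitochondrial proteins were measured as well. Of 10 listed regulators, 5 were higher on the stromal arrays. The count was 2 without endothelial 3 and with the actin covariate, and 3 without endothelial 1. Gabpa, the DNA-binding subunit of GABP, stood at 10.33, 9.85, 9.63 and 11.17 on the stromal and at 6.34, 9.87 and 5.86 on the endothelial arrays. Its difference was 2.89 (SE 0.90, adjusted p 0.0209), with endothelial 2 at the stromal level. Pprc1, a coactivator of the PGC-1 family, was higher by 2.83 (SE 0.47, adjusted p 0.00124), its endothelial mean below those arrays' 40th percentile, and Gabpb2, a partner of Gabpa, by 1.71 (SE 0.25, adjusted p 0.00056). Nrf1 (-0.45, adjusted p 0.436) and Yy1 (0.61, adjusted p 0.282) were not called, and their intervals include 0.

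The promoters of the members were read from RefSeq (GRCm38.p6), as the 250 bases before and 50 bases after each start, and 67 of the 76 genes matched. The motif CCGGAAG of the ETS family, to which Gabpa belongs, lay in the promoters of 25 of the 67 genes (37.3%), beside 17.8% of the genes tested that have a promoter in the table and 9.93% of all genes in it. The YY1 motif AAGATGGC lay in 17.9% of the members and 4.76% of the genes tested, and the NRF1 motif, GCGC and TGCGC divided by 1 base of any kind, in 17.9% and 10.2%. The E-box CACGTG (7.46% and 11.1%) and the box CCAAT (38.8% and 42.2%) were no more frequent among members. Both strands were searched, the motifs as written do not contain one another, and a match is a description of letters, not of binding. Called members did not hold the larger shares: the ETS motif lay in 9 of 28 genes higher on the stromal arrays (32.1%) and in 15 of 38 not called (39.5%), and the NRF1 motif in 10.7% and 21.1%. The 250 bases before the start of Mrps22 (chr9:98601680-98601929, minus strand) show the ETS motif, in capitals, next to the start of a gene with one of the firmest differences.
Mrps22: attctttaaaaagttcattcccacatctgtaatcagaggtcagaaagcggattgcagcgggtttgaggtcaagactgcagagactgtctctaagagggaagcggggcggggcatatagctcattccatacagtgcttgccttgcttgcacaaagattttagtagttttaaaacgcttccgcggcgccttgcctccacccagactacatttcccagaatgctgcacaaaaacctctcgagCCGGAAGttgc

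Some of the 67 mitoribosome genes with a promoter begin close to a gene on the other strand. The share of all genes that do so was not computed. A start on the opposite strand within 1000 bases was found for 25 members, at a median distance of 136 bases, and the neighbour was tested for 22 of them. Where the member was higher on the stromal arrays, the neighbour was so too in 2 cases, uncalled in 6 and higher on the endothelial arrays in 2. Where the member was not called, the neighbour was higher on the stromal arrays in 3 cases and uncalled in 9. Mrps11 and Mrpl46 are neighbours of each other and enter these counts from each side. With Mrpl46 as the member the pair is among the 6, and with Mrps11 as the member among the 3. Of all genes tested, 30.9% had a stromal call and 16.1% an endothelial call. Whether neighbours share the call of their member more often than other genes was not tested. The cases with both higher on the stromal arrays were Mrpl21 with Ighmbp2 (1.43 and 1.17) and Mrps7 with Gga3 (1.07 and 1.15). The opposite cases were Mrpl49 with Fau (1.75 and -1.18), the latter encoding a cytosolic ribosomal protein fused to a ubiquitin-like one, and Mrps26 with 4930473A02Rik (2.19 and -1.01).

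One such pair joins both subunits. Mrps11 and Mrpl46 begin 42 bases apart on chromosome 7. Mrpl46 stood at 9.43, 9.90, 10.14 and 9.69 on the stromal and at 8.22, 9.02 and 7.53 on the endothelial arrays, a difference of 1.53 (SE 0.35, adjusted p 0.00548). Mrps11 stood at 7.54, 8.09, 8.36 and 7.30 against 8.33, 8.36 and 8.55, a difference of -0.59 (SE 0.27, adjusted p 0.0871). The 95% intervals, 0.73 to 2.34 and -1.22 to 0.04, do not overlap, though the difference between the genes was not tested.

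The stretches between divergent starts are printed for some of the pairs, picked by hand, with ETS, NRF1 and CCAAT matches on either strand in capitals. The pairs with opposite calls, Mrpl49 with Fau and Mrps26 with 4930473A02Rik, are not among them. Mrps11 and Mrpl46 are divided by chr7:78783090-78783130 (plus strand), which holds none of the motifs. Mrps12 shares its stretch (chr7:28741822-28741967, minus strand) with Sars2, the mitochondrial seryl-tRNA synthetase, at 1.15 and -0.36. Mrpl43 shares its stretch (chr19:45006443-45006557, minus strand) with Twnk, the helicase of mitochondrial DNA, at 0.35 and -0.15, neither called. Mrpl57, the gene higher on the endothelial arrays, has an NRF1 match between its start and that of Ska3 (chr14:57826164-57826238, plus strand), which was not tested. Mrps18c and Helq, a DNA helicase, are divided by chr5:100798601-100798758 (plus strand), at -0.35 and 1.10. Mrpl27 and Eme1, a subunit of a DNA endonuclease, are divided by chr11:94653744-94653790 (plus strand), at 2.38 and -0.58.
Mrps11 and Mrpl46: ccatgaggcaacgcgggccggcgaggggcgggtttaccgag
Mrps12 and Sars2: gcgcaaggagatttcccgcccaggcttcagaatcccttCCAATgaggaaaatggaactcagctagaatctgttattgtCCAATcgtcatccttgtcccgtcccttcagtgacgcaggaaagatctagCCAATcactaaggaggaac
Mrpl43 and Twnk: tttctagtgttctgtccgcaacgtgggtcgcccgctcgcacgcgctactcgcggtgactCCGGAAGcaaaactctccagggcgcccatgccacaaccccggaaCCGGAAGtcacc
Mrpl57 and Ska3: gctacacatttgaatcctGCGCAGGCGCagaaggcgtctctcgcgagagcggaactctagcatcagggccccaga
Mrps18c and Helq: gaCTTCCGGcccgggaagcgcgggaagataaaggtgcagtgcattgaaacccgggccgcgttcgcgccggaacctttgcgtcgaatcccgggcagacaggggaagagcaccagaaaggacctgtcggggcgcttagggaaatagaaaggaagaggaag
Mrpl27 and Eme1: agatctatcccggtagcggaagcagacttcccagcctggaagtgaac

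**Figure D5:**
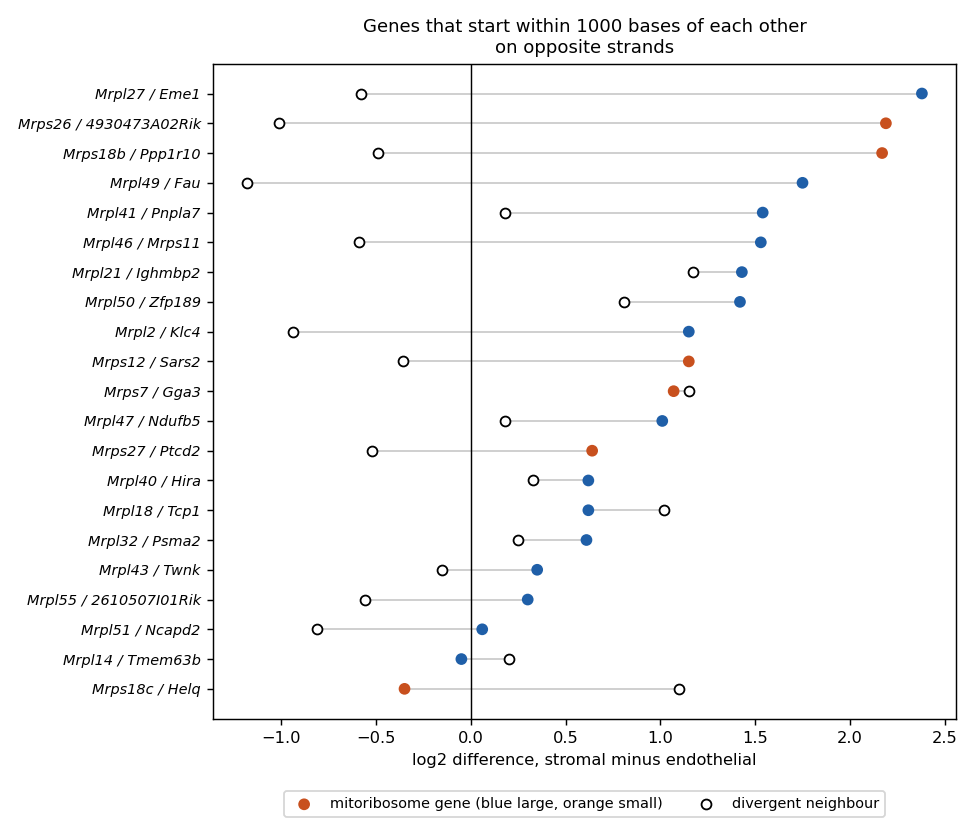
Log2 difference, stromal minus endothelial arrays (x axis), of each member (filled) and of the gene that begins within 1000 bases on the other strand (open), one pair a line. Mrps11, itself a member, is drawn once as the neighbour of Mrpl46; in the pairs of Mrpl27, Mrps26 and Mrpl49 the member lies above 1.5 and the neighbour below 0.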

How the data were processed

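The deposited table gives log2 expression per probe set. Per the submitters' processing notes, the authors used RMA in Affymetrix Expression Console 1.1. RMA subtracts background, sets the arrays to a common distribution and summarises probe sets. Which arrays were normalized together is not given in the sources used here. All 7 columns were used and 0 pairs were identical. Arrays have no read depth, and their number limits the precision. Array medians lay between 6.00 and 6.19 and 40th percentiles between 5.48 and 5.79.

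Of 45101 probe sets, 34945 had 1 symbol in a platform annotation of 2016. Another 932 had several symbols, 4 of them with a mitoribosome name, and were left out. A gene was represented by its single-symbol probe set of highest mean across the arrays. Testing required 3 arrays or more above their own 40th percentile and kept 13995 of 18193 genes. Levels of different genes were not compared. limma 3.58.1 under R 4.3.3 fitted the group difference (lmFit, then eBayes) with no further term, and p-values were adjusted over the genes tested by Benjamini-Hochberg. No fold is given where a group mean lay below its arrays' 40th percentile. Subunits follow the letter in the symbol. The families shared with bacteria, the placements by structure, the gene lists, motifs and markers were written from textbook knowledge. The members and lists were chosen with earlier results of these data known. The genes named are, in each subunit and direction, the 6 called members with the largest difference, those whose probe sets oppose each other, 8 members chosen for structure or pairing, up to 3 called genes per list and direction, and the neighbours of members. Others appear in counts or ranges, or because their values were seen. Gene starts and promoters come from RefSeq tables of GRCm38.p6.

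On simulated data with 50 genes changed per size among 13995, the procedure recovered 31 genes changed by 1.5 (log2) and 39 changed by 2. It recovered 47 changed by 3 and 50 by 4, and 19 unchanged genes were called. The simulation gave each gene the same SD in both groups and changed far fewer genes than were called in the data. These rates may therefore not carry over to the data. Alternatives were other filters, probe set rules and normalizations, centring on cytosolic ribosomal protein genes, eBayes options, adjusted p alone, blocks, subunits by structure and leaving out each array. The actin covariate was added after seeing the data.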

Additional observations from a re-analysis of the deposited data

Results flagged for a closer look

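The value of Mrps10 on stromal 1, 9.76, stood apart from the other stromal arrays, which read 10.00, 10.03 and 10.02. Its gap to the nearest of them was 0.88 of the whole range of the group. Of 29 results examined in this way on the 4 stromal arrays, 1 stood out so far, and chance does so in about 1 in 20. The endothelial arrays, only 3, were not examined. The Mrps10 difference from the endothelial arrays was 2.41.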

How the results depend on the processing

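Counts give the genes called higher on stromal arrays, then on endothelial arrays, and medians are log2 differences. The second quantile normalization gave 4 and 3 in the large subunit (median 0.30) and 9 and 2 in the small (0.61). Cyclic loess gave 5 and 5 (0.25) and 9 and 3 (0.56), and the actin covariate 8 and 3 (0.34) and 10 and 0 (0.78). Centring on cytosolic ribosomal protein genes gave 23 and 1 (0.88) in the large subunit. It made the spread more alike between genes, raising the prior degrees of freedom from 3.12 to 23.2, which by itself lowers the p of variable genes. The mean of probe sets gave 8 and 0 in the large and 11 and 1 in the small subunit. Without suffixed probe sets, 2 large subunit genes were higher on the endothelial arrays. By adjusted p alone, 2 genes in each subunit were. With the hybridisation control block the large subunit had 0 such genes and a median of 0.95, and by structure its median was 0.92. The cause of these shifts was not tested.

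Leaving out 1 array gave 12 to 23 stromal and 1 endothelial calls in the large subunit, with medians of 0.58 to 0.99. The small subunit had 12 to 18 and 0 to 1, with medians of 0.96 to 1.49. The stromal shares were 25.5% to 48.9% and 41.4% to 62.1%, beside 28.5% to 34.2% of all genes tested. Without stromal 2, stromal 3 or endothelial 1 the large subunit share was 25.5%, below the 28.9%, 29.5% and 28.5% of all genes. The highest counts came without endothelial 2, and without stromal 3 or endothelial 2 the small subunit had 1 endothelial call. Mrpl19 (-0.56) and Mrpl21 (-1.11) turned without suffixed probe sets. Mrpl9 turned under the second quantile normalization (-0.09), cyclic loess (-0.11) and the actin covariate (-0.02), and Mrpl10 under the first of these (-0.12) and under cyclic loess (-0.12). Over the 27 named members and all settings, calls were lost 56 times and gained 7 times, the sign turned 7 times, and 440 values kept direction and call. Without a low-value filter or with one at the 60th percentile all 6 counts and medians stayed as they were. Whether the replicate numbers 1 to 3 pair the arrays is not given by the labels. Deviations of same-numbered arrays correlated at 0.00, 0.03 and 0.12, and those of arrays with different numbers at -0.08 to 0.06. Such weak correlations do not settle whether the arrays are paired. The replicate block gave 17 and 1 calls in the large (median 0.80) and 16 and 0 in the small subunit (1.17).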
